A study of Homo sapiens with 4 samples.

Results

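The results concern 36 nuclear genes whose protein products copy, transcribe, cut, modify, stabilise or degrade the nucleic acids of mitochondria. They were chosen by name: a row of the deposited tables belonged to the group when its Ensembl gene identifier mapped to 1 of the 36 listed symbols, and all 36 symbols were found among 58736 listed features. The rule itself uses names and no expression value. RNA was measured in HEK293A, a human embryonic kidney epithelial cell line, in 4 libraries. The study examined how well a system called HpSGNi regulates genes, in which flap endonuclease 1 (FEN1, a nuclease that removes the single-stranded flaps of branched DNA) is directed by DNA probes that fold into hairpins.

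Mitochondria carry their own small circular genome, which encodes a few respiratory chain subunits and the ribosomal and transfer RNAs needed to make them. Everything else required to copy and express that genome is encoded in the nucleus. Both strands are transcribed into long precursors, and the transfer RNAs are cut out of them. Most of the messenger RNAs released by those cuts are polyadenylated, and they are protected by RNA-binding proteins and finally degraded.

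Every culture received the FEN1 plasmid (1 µg), with 300000 cells seeded per well 24 h earlier, and then DNA probes (500 pmol) 48 h after the plasmid, and RNA was prepared after 72 h. The 2 libraries called NC (replicates 1 and 3) are labelled as the negative control, and the 2 called NT1_hp2 (replicates 2 and 3) received the NT1_hp2 probe. The labels used here give neither the sequence nor the target of either probe, nor do they say whether replicates were separate cultures, so p-values reflect only how far these 4 libraries scatter, which can be technical. FEN1 was supplied to both groups, so neither is an untreated culture, and 2 libraries per group limit every statement below. An exact permutation test of 2 against 2 cannot give a two-sided p below 0.333.

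Values are FPKM, in which the reads of a gene are divided by its length and by the depth of the library. Recovered totals were 12557001 to 14972373 reads per library, and a member gene was covered by 42 to 4843 reads in a library (median 413.5). Of 9 markers of embryonic kidney epithelium, 7 were at 1 FPKM or more in every library, while PAX2 and PAX8 were below it. None of the 4 blood, 3 endothelial and 2 hepatocyte markers reached 1 FPKM in all libraries, and of 4 fibroblast markers only COL1A1 did. The share of reads on the mitochondrial chromosome was 6.03% and 5.89% in the NC libraries and 4.32% and 4.28% in the NT1_hp2 libraries.

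Promoter sequences are shown for 6 members on which the results turn. They are the 4 that passed the test in the main comparison, and the mitochondrial RNA polymerase POLRMT with its partner TFAM. None of those 4 passed in every alternative setting. POLRMT and TFAM are textbook targets of the nuclear respiratory factors NRF1 and GABP. RefSeq windows (GRCh38.p14) were matched for 32 of the 36 members. The search covered 250 bases before and 50 from a RefSeq transcript start, on both strands, and the lines below print 230 bases before and 30 from that start, 5′ to 3′ on the gene's own strand. A RefSeq start need not be the outermost start of the gene in other annotations. The windows lie at chr17:30906209-30906468 (minus strand, TEFM), chr19:633508-633767 (minus strand, POLRMT), chr10:58385180-58385439 (plus strand, TFAM), chr7:151080780-151081039 (minus strand, FASTK), chr7:45111668-45111927 (minus strand, TBRG4) and chr17:13017998-13018257 (minus strand, ELAC2). Capitals mark letters that match the NRF1 element (in POLRMT as GCGCATGCGC, with the T free to be any base), CCGGAAG (the ETS core bound by GABP) or the YY1 element (the capitals of the FASTK line), in either orientation.
TEFM: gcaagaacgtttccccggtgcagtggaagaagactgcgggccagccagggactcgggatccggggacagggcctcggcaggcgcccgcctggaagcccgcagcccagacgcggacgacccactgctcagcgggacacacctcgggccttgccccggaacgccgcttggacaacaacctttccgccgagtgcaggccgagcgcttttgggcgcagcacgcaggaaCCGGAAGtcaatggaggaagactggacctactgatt
POLRMT: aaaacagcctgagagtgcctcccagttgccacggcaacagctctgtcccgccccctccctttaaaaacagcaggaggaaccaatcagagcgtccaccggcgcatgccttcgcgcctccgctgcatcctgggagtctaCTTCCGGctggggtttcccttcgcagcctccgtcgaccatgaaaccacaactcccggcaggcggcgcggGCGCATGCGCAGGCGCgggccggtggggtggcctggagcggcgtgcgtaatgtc
TFAM: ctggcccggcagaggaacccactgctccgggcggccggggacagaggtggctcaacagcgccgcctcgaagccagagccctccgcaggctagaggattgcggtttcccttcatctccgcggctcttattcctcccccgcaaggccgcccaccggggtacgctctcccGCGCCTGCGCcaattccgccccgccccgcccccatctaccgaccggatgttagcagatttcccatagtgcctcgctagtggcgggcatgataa
FASTK: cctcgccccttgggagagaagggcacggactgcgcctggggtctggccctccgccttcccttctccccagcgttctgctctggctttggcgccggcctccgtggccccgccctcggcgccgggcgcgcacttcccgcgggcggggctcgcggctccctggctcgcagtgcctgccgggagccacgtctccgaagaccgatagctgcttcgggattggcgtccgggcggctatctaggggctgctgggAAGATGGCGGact
TBRG4: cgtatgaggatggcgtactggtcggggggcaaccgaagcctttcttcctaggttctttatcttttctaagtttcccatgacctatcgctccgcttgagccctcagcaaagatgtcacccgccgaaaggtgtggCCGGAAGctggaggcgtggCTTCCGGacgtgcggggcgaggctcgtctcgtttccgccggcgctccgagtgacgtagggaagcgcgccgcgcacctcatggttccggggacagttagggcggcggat
ELAC2: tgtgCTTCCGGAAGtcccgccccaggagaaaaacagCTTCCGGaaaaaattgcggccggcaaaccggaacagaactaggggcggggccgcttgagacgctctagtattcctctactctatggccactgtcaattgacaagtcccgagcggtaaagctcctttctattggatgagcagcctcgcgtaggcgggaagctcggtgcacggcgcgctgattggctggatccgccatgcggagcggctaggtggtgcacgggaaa

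In these windows TEFM had a single GABP core that ended on the transcript start. POLRMT had a pair of overlapping NRF1 matches, from base -24 to -9 counted back from the start, and a GABP core further upstream at -93 to -87. TFAM had an NRF1 match at -63 to -54 and FASTK a YY1 match at 18 to 27, inside the transcript. TBRG4 held GABP cores at -97 and -78, and ELAC2 held 3, of which those beginning at -226 and -223 overlap. These are matches of letters and do not show that a factor was bound.

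Over all 32 members with a window, the GABP core was found in 14 (43.8%), against 12.2% of 27305 genes with RefSeq windows and 22% of the 10597 tested genes searched the same way. The NRF1 motif was found in 5 (POLG2, POLRMT, REXO2, TFAM and TFB1M, 15.6%), against 6.98% and 13.5%. The SP1 element GGGGCGGGG went the other way, in 4 members (12.5%) against 18.45% of all genes and 33.5% of tested genes. YY1 matched in FASTK and SLIRP (2 members, against 3.26% of tested genes), the estrogen-related receptor element TCAAGGTCA in 0 the ATF4 element TGATGNAA in SSBP1 and the CREB element TGACGTCA in MGME1 and TRNT1. POLG2, POLRMT and TFB1M held both an NRF1 and a GABP match. Among the 14 with a GABP core, 4 had a level above the control and 10 below it, with a median log2 difference of -0.12, and the 17 tested members without one had a median of 0.12. Of all 35 tested members 15 were above 0 and 20 below. GC content, which went with the differences (below), was not matched between members with and without the core. Among the 5 with an NRF1 match 4 were above 0 and POLRMT below it. These values are descriptions, since the motifs were chosen after expression values had been seen.

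Few of the 36 genes passed the test in the main comparison. Of the 35 that could be tested, TEFM rose and FASTK, TBRG4 and ELAC2 fell (limma, Benjamini-Hochberg adjusted p below 0.05 over 16362 tested genes), which is 4 genes or 11.4%. Over all tested genes 13.9% passed, 5.00% higher and 8.92% lower, so the share among the members was near the background. PRORP was below the level filter and was not tested. Before adjustment 17 members (48.6%) had p below 0.05, 5 higher and 12 lower, against 37.0% of all genes. The 2 libraries of a group lay wholly to one side of the other group's in 26 of the 35 tested members (74.3%), against 66.8% of all tested genes.

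Differences were small. None of the 36 reached a 2-fold difference, and log2 differences ran from -0.83 (HSD17B10) to 0.40 (TEFM). The median log2 difference was -0.038 in the members and -0.0075 in all tested genes, and the median size without sign was 0.21 and 0.22. In bulk RNA, fewer cells of a kind and less RNA per cell cannot be told apart. The genes were of moderate abundance: their median mean level was 8.81 FPKM against 5.30 for all tested genes, with MGME1 (41.2 FPKM) and LRPPRC (31.8 FPKM) at the top and PRORP (0.802 FPKM) at the bottom.

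**Figure D1:**
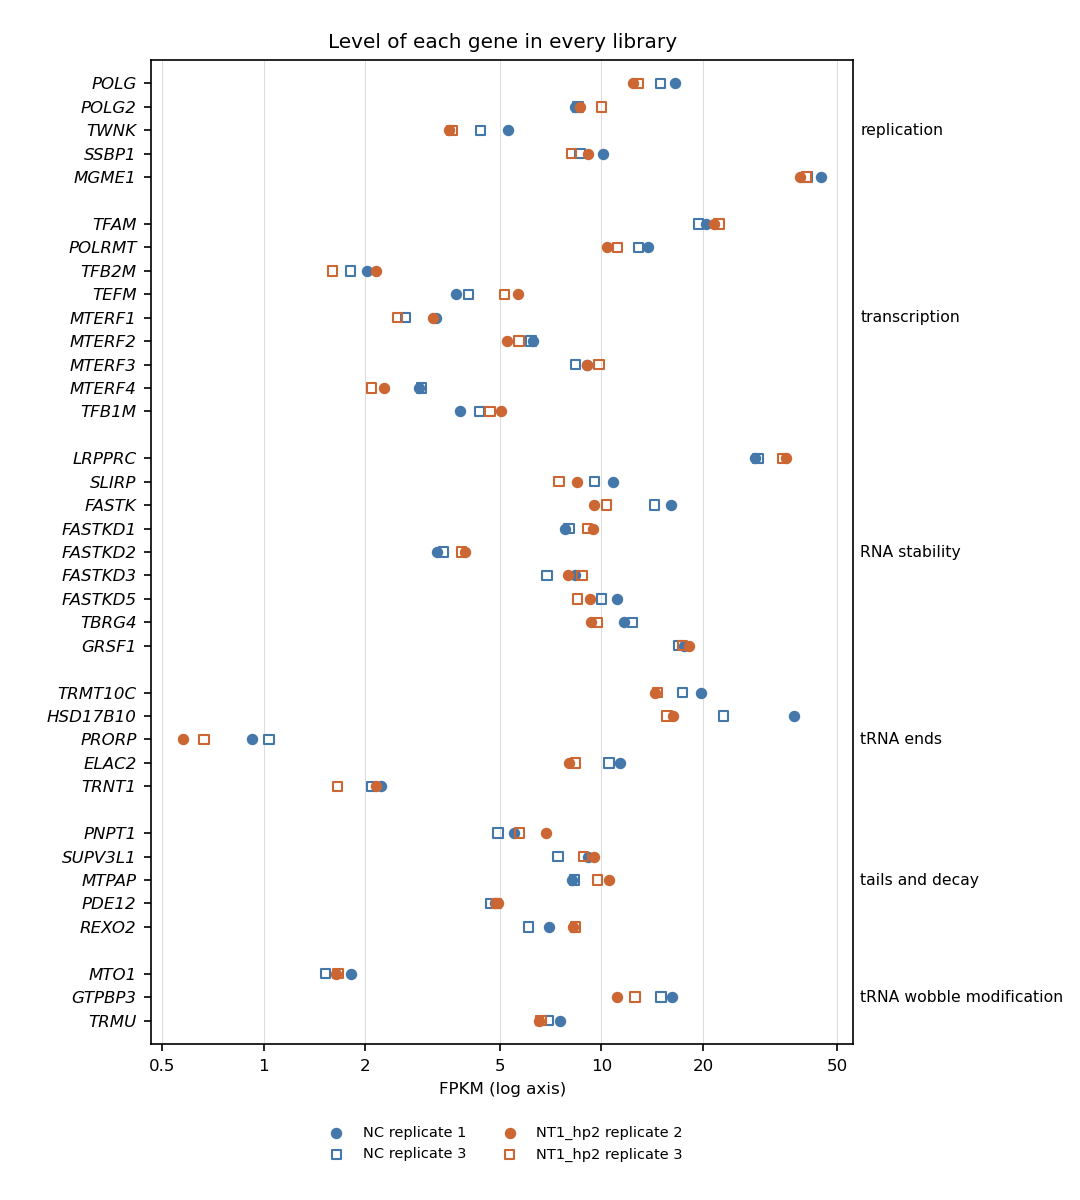
Level of each of the 36 genes in FPKM on a log axis, 1 point per library, with NC in blue and NT1_hp2 in orange, grouped by role. Points of the groups are apart for TEFM (3.71 and 4.05 against 5.67 and 5.18) and for FASTK (16.1 and 14.4 against 9.49 and 10.4), and intermixed for 9 of the 36 genes, such as MTERF1.

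Base composition went with the direction of the differences. Across the 35 tested members the log2 difference and the GC content of the annotated transcripts had a Pearson r of -0.70 (Spearman rho -0.61), and across 16350 genes -0.48 (rho -0.56). Genes share libraries and are not independent replicates, so no p is given. All 10 members with a GC content above the median of tested genes (48.5%) were lower in NT1_hp2 on average, with a median of -0.33, and all 3 members that fell were among them. Over all genes in that upper range 73.5% were below 0 and the median was -0.18. Of the 25 members below the median GC, 15 were above 0 and 10 below, with a median of 0.10. In that lower range 28.3% of all genes were below 0 and their median was 0.14. The same correlation between libraries of one group was 0.20 over members for the NC pair and -0.40 for the NT1_hp2 pair. After a smooth trend with length and GC content was taken out of each library, the correlation over members was -0.17 and no member passed the test, with 13 members at an unadjusted p below 0.05. Over all genes 1.71% then passed. When that trend was removed among protein-coding genes alone, 8 members passed, all lower (ELAC2, FASTK, FASTKD5, MTERF2, MTERF4, SLIRP, SSBP1 and TRMT10C), and 22.1% of those genes did.

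**Figure D2:**
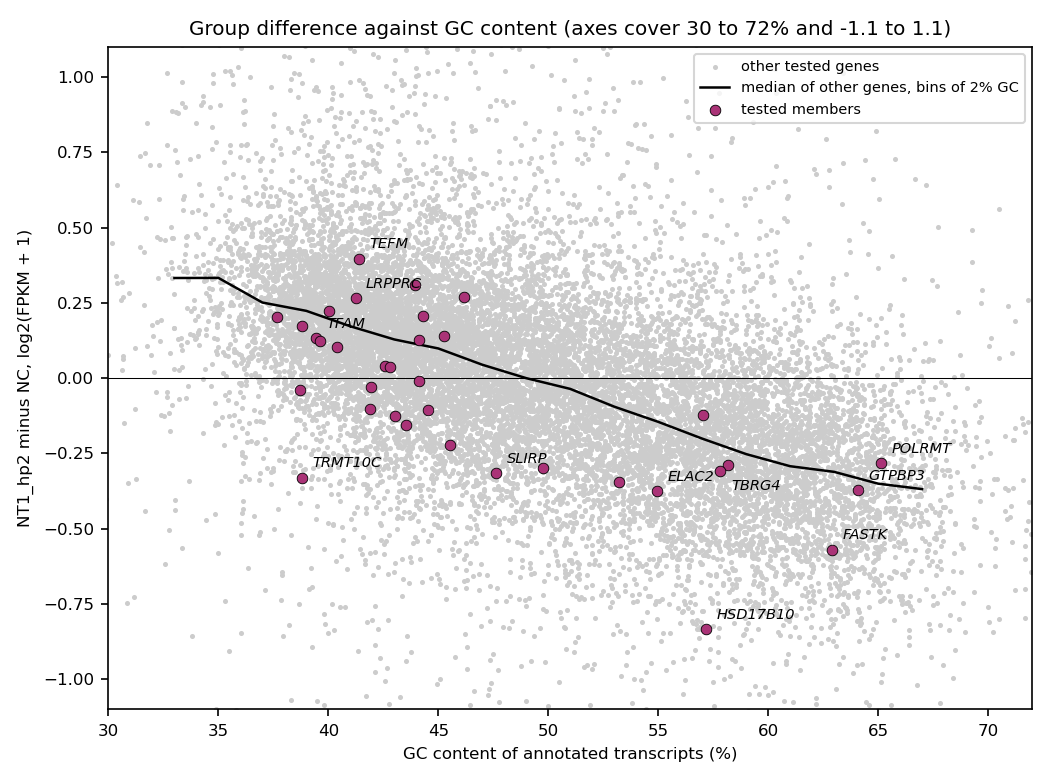
Difference of log2(FPKM + 1), NT1_hp2 minus NC, against GC content in percent for the 35 tested members (purple) and all other tested genes (grey), with the median of the other genes in bins of 2% GC as a line. The members run down with the line from TEFM and LRPPRC on the left to FASTK and POLRMT on the right, while TRMT10C and HSD17B10 lie well below it.

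Among the genes that copy mitochondrial DNA none of 5 passed, against 13.9% of all tested genes. POLG, the catalytic subunit of the mitochondrial DNA polymerase gamma (exons in chr15:89305198-89334861, GENCODE 29 coordinates on GRCh38), measured 16.5 and 14.9 FPKM in NC and 12.4 and 12.9 FPKM in NT1_hp2. Both NT1_hp2 libraries were below both controls, with a log2 difference of -0.29 (SE 0.074, limma adjusted p = 0.0614). Its accessory subunit POLG2 measured 8.36 and 8.53 FPKM in NC and 8.63 and 10.0 FPKM in NT1_hp2. Its log2 difference was 0.13 (SE 0.089, adjusted p = 0.362), with the nearest libraries of the groups almost level. The ratio of POLG to POLG2 level was 1.97 and 1.75 in NC and 1.44 and 1.28 in NT1_hp2. Its separation follows from the opposite directions of these genes. POLG shares 7.66% of its exon length with FANCI on the other strand, which was at 31.9 to 40.4 FPKM, and the library kit does not mark strand. Once the length and GC trend was removed POLG was at -0.086 and POLG2 at 0.066.

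TWNK, the replicative helicase Twinkle, measured 5.29 and 4.39 FPKM in NC and 3.55 and 3.61 FPKM in NT1_hp2 (log2 difference -0.35, adjusted p = 0.0842). The NT1_hp2 values were below both controls and close together. TWNK shares 3.61% of its exon length with MRPL43 on the other strand. MRPL43 was at 13.2 and 11.7 FPKM in NC and 8.46 and 9.78 FPKM in NT1_hp2. The single-strand binding protein SSBP1 was at -0.10 (adjusted p = 0.508), with overlapping groups. After removal of the length and GC trend it was at -0.24 (adjusted p = 0.183), and it passed among protein-coding genes (-0.28, adjusted p = 0.0480). MGME1, an exonuclease that trims the ends and flaps of replicating mitochondrial DNA and the most abundant of the 36 transcripts, measured 44.8 and 40.7 FPKM in NC and 38.7 and 40.5 FPKM in NT1_hp2. That is a log2 difference of -0.11 (adjusted p = 0.366). With the trend removed TWNK was at -0.23 and MGME1 at -0.13.

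In the transcription machinery, 1 of 9 genes passed, against 13.9% of all tested genes. TEFM, the factor that keeps the mitochondrial RNA polymerase on its template during elongation (ENSG00000172171, chr17:30897336-30906820, minus strand), measured 3.71 and 4.05 FPKM in NC and 5.67 and 5.18 FPKM in NT1_hp2. Both NT1_hp2 libraries were above both controls. Its mean was 3.88 ± 0.243 FPKM (SD, n = 2) in NC and 5.42 ± 0.345 FPKM (SD, n = 2) in NT1_hp2, which is 1.40-fold, with a log2 difference of 0.40 (SE 0.089, limma adjusted p = 0.0494). TEFM stayed above 0 in every setting tried, at 0.28 with the length and GC trend removed (adjusted p = 0.114) and at 0.34 to 0.45 when a library was left out (adjusted p = 0.0857 to 0.243). An antisense gene covering 16.8% of its exons was listed at 0 in all libraries, and ADAP2, overlapping 9.34%, was at 1.69 to 2.03 FPKM.

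POLRMT, the single-subunit RNA polymerase of mitochondria (ENSG00000099821, chr19:617224-633604, minus strand), measured 13.8 and 12.9 FPKM in NC and 10.4 and 11.2 FPKM in NT1_hp2. Both NT1_hp2 libraries were below both controls, and the log2 difference was -0.28 (SE 0.073, limma adjusted p = 0.0621). TFAM, which bends the promoters and packages the mitochondrial genome (ENSG00000108064, chr10:58385022-58399221, plus strand), measured 20.5 and 19.4 FPKM in NC and 21.6 and 22.3 FPKM in NT1_hp2. Its groups did not overlap either but lay the other way round, at 0.13 (SE 0.064, adjusted p = 0.205). The ratio of TFAM to POLRMT was 1.487 and 1.505 in NC and 2.076 and 1.998 in NT1_hp2. Its separation follows from the opposite directions of these genes. These genes stand at opposite ends of base composition, with 39.4% GC in TFAM and 65.1% in POLRMT, and with the length and GC trend removed TFAM was at -0.071 and POLRMT at 0.027.

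TFB2M, which opens the promoter for the polymerase, had overlapping groups around 1.90 FPKM (log2 difference -0.028, adjusted p = 0.912). The termination factor MTERF1 also overlapped (-0.038, adjusted p = 0.871). Its relatives spread to both sides: MTERF3 was at 0.10 (adjusted p = 0.398), MTERF2 at -0.16 (adjusted p = 0.206), and MTERF4 at -0.30 (adjusted p = 0.103). MTERF4, which escorts a methyltransferase to the large ribosomal subunit, measured 2.89 and 2.94 FPKM in NC and 2.28 and 2.08 FPKM in NT1_hp2. Its exons share 51.0% of their length with SNED1 on the other strand, which was at 0.776 to 0.896 FPKM with no such separation. TFB1M, which methylates the small ribosomal RNA, measured 3.81 and 4.36 FPKM in NC and 5.05 and 4.69 FPKM in NT1_hp2 (0.21, adjusted p = 0.185). After removal of the length and GC trend MTERF1 was at -0.25, MTERF2 at -0.23, MTERF4 at -0.36, TFB2M at -0.11, MTERF3 at -0.015 and TFB1M at 0.17. MTERF2 (-0.27, adjusted p = 0.0414) and MTERF4 (-0.39, adjusted p = 0.0158) passed among protein-coding genes with that trend removed. MTERF2 shares 11.6% of its exon length with TMEM263 on the other strand, which was at 21.5 to 27.1 FPKM.

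**Figure D3:**
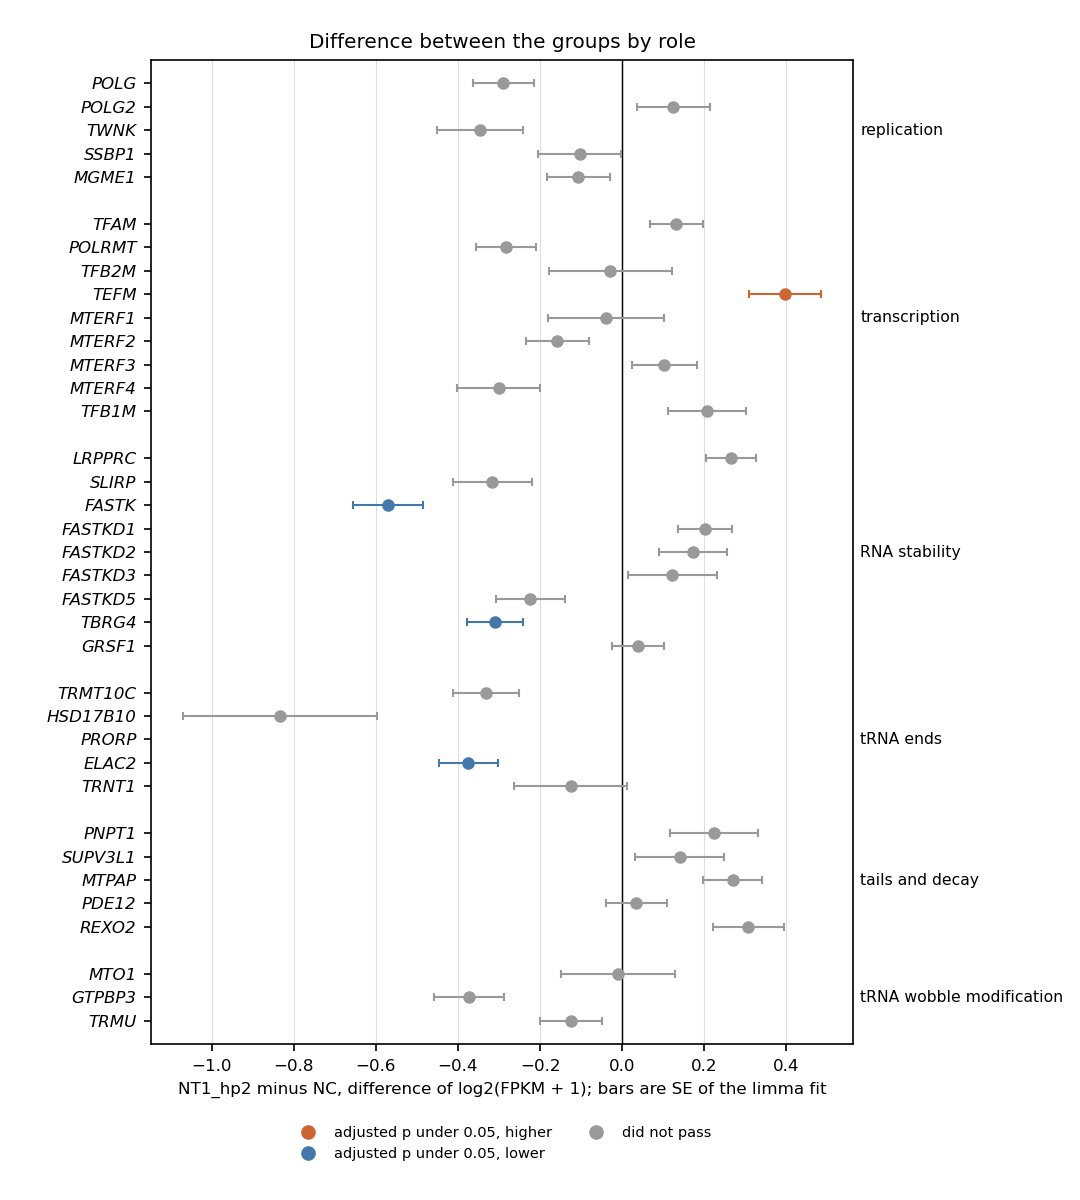
Difference of log2(FPKM + 1), NT1_hp2 minus NC, for each tested member with the standard error of the limma fit as a bar, grouped by role. TEFM (orange) passed the test above 0, and FASTK, TBRG4 and ELAC2 (blue) passed below it. All 4 tested transfer RNA end factors lie below 0 and all 5 tail and decay factors above it.

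Among the factors that stabilise mitochondrial RNA, 2 of 9 fell and none rose, against 8.92% and 5.00% of all tested genes. FASTK, founder of the FASTK family of RNA-binding proteins and needed for the mRNA of MT-ND6 (ENSG00000164896, chr7:151076593-151080866, minus strand), measured 16.1 and 14.4 FPKM in NC and 9.49 and 10.4 FPKM in NT1_hp2. The NT1_hp2 libraries were well below both controls. The means were 15.2 ± 1.19 and 9.93 ± 0.619 FPKM (SD, n = 2 each), which is 0.652-fold, with a log2 difference of -0.57 (SE 0.085, limma adjusted p = 0.0340). With the length and GC trend removed it was -0.26 (adjusted p = 0.0728), and among protein-coding genes alone with that trend removed it was -0.29 and passed (adjusted p = 0.0152). FASTK has a GC content of 62.9%.

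TBRG4, the relative also called FASTKD4 (ENSG00000136270, chr7:45100100-45112047, minus strand), measured 11.7 and 12.4 FPKM in NC and 9.31 and 9.73 FPKM in NT1_hp2. Both NT1_hp2 libraries were below both controls. Means of 12.04 ± 0.490 and 9.52 ± 0.300 FPKM (SD, n = 2 each) gave 0.791-fold and a log2 difference of -0.31 (SE 0.068, limma adjusted p = 0.0488). That call was lost with median-of-ratios scaling (-0.29, adjusted p = 0.0544), and with the length and GC trend removed the difference was -0.11. The other 4 members of the family did not pass. FASTKD1 measured 7.83 and 8.03 FPKM in NC and 9.47 and 9.08 FPKM in NT1_hp2 (0.20, adjusted p = 0.0994). FASTKD2, which acts on the large ribosomal RNA, was at 0.17 (adjusted p = 0.200), FASTKD3 at 0.12 (adjusted p = 0.460) and FASTKD5, which processes precursors at junctions without a transfer RNA, at -0.22 (adjusted p = 0.130). As deposited, FASTKD1, FASTKD2 and FASTKD3 with 37.7% to 39.6% GC had differences above 0, and FASTKD5, TBRG4 and FASTK with 45.5% to 62.9% GC below it. With the length and GC trend removed all 6 were below 0, FASTKD1 at -0.017, FASTKD2 at -0.049, FASTKD3 at -0.019 and FASTKD5 at -0.24 beside the values above. FASTKD5 passed among protein-coding genes with that trend removed (-0.27, adjusted p = 0.0292).

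LRPPRC and SLIRP form a complex that holds mature mitochondrial mRNAs. LRPPRC (ENSG00000138095, chr2:43886508-43996005, minus strand) measured 28.5 and 29.1 FPKM in NC and 35.1 and 34.5 FPKM in NT1_hp2, and SLIRP measured 10.8 and 9.56 FPKM in NC and 8.48 and 7.496 FPKM in NT1_hp2. Neither pair of groups overlapped, and the directions were opposite. The log2 difference was 0.27 for LRPPRC (SE 0.060, limma adjusted p = 0.0502) and -0.32 for SLIRP (SE 0.096, adjusted p = 0.0845). The ratio of LRPPRC to SLIRP was 2.63 and 3.05 in NC and 4.14 and 4.61 in NT1_hp2. Its separation follows from those opposite directions and adds no evidence. Once the length and GC trend was removed LRPPRC was at 0.041 while SLIRP stayed at -0.29 (adjusted p = 0.104). SLIRP passed among protein-coding genes with that trend removed (-0.31, adjusted p = 0.0211). It shares 4.48% of its exon length with SNW1 on the other strand, which was at 24.2 to 28.8 FPKM. GRSF1, an RNA-binding protein of the mitochondrial RNA granules, measured 17.6 and 17.0 FPKM in NC and 18.2 and 17.4 FPKM in NT1_hp2. Its groups overlapped (0.039, adjusted p = 0.702), and with the trend removed it was at -0.13.

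The 5 factors that form transfer RNA ends all had a lower mean in NT1_hp2. Of the 4 tested ELAC2 passed, against 13.9% of all tested genes. Mitochondrial RNase P cuts the 5′ end and is made of TRMT10C, HSD17B10 and PRORP. ELAC2 cuts the 3′ end and TRNT1 adds the terminal CCA. The median log2 difference of the 4 tested genes was -0.35, against -0.0075 over all tested genes. ELAC2 and HSD17B10 have a GC content above the median of tested genes, where the median over all genes was -0.18, with 73.5% below 0. TRMT10C and TRNT1 lie under it, where that median was 0.14, with 28.3% below 0. All 4 stayed below 0 in every one of the 16 alternative settings, and 23 of the 35 tested members kept 1 sign in all of them. Those settings refit the same 4 libraries.

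ELAC2 (ENSG00000006744, chr17:12992391-13018187, minus strand) measured 11.3 and 10.5 FPKM in NC and 8.01 and 8.39 FPKM in NT1_hp2. Both NT1_hp2 libraries were below both controls. Means were 10.9 ± 0.551 and 8.20 ± 0.269 FPKM (SD, n = 2 each), 0.7498-fold, with a log2 difference of -0.38 (SE 0.072, limma adjusted p = 0.0412). It was -0.25 with the length and GC trend removed (adjusted p = 0.0779) and -0.28 in the protein-coding fit with that trend removed (adjusted p = 0.0216).

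TRMT10C, the methyltransferase subunit of RNase P, measured 19.8 and 17.4 FPKM in NC and 14.4 and 14.7 FPKM in NT1_hp2. The groups did not overlap, and the log2 difference was -0.33 (SE 0.081, limma adjusted p = 0.0569). Its GC content was low, 38.8%, and with the length and GC trend removed the difference was larger, at -0.48 (adjusted p = 0.0577), and passed among protein-coding genes (-0.47, adjusted p = 0.00221). PRORP, the nuclease subunit, was the least abundant of the 36, at 0.925 and 1.04 FPKM in NC and 0.578 and 0.666 FPKM in NT1_hp2. Those values rest on 93, 91, 57 and 66 reads, and both NT1_hp2 libraries were below both controls (0.634-fold, not tested). A readthrough gene on the same strand shares 40.9% of its exon length and was at most 0.09 FPKM.

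HSD17B10, a dehydrogenase of isoleucine breakdown that also serves as the scaffold subunit of RNase P (chrX:53431258-53434373, minus strand), measured 37.2 and 23.0 FPKM in NC and 16.3 and 15.7 FPKM in NT1_hp2. The NT1_hp2 libraries agreed closely and lay below both controls, but the controls differed from each other by 14.3 FPKM. Means were 30.1 ± 10.1 and 16.0 ± 0.463 FPKM (SD, n = 2 each), 0.531-fold, and the log2 difference of -0.83 was the largest of the members but did not pass (SE 0.24, limma adjusted p = 0.0827). It was -0.50 without NC replicate 1 and -1.17 without NC replicate 3, so its size turned on which control was used. The ratio of TRMT10C to HSD17B10 was 0.530 and 0.757 in NC and 0.882 and 0.936 in NT1_hp2. TRNT1 was at 2.23 and 2.09 FPKM in NC and 2.16 and 1.66 FPKM in NT1_hp2 (log2 difference -0.12, adjusted p = 0.556), with overlapping groups. TRNT1 shares 10.8% of its exon length with CRBN on the other strand, which was at 4.10 to 5.38 FPKM. After removal of the length and GC trend HSD17B10 was at -0.63 and TRNT1 at -0.25.

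The 5 factors of tails and decay all had a higher mean in NT1_hp2, with a median log2 difference of 0.22. None passed, against 13.9% of all tested genes. All 5 had a GC content below the median of tested genes. In that range the median over all genes was 0.14, with 28.3% below 0. REXO2, the oligoribonuclease that clears the shortest RNA fragments (chr11:114439386-114450279, plus strand), measured 7.003 and 6.09 FPKM in NC and 8.25 and 8.40 FPKM in NT1_hp2. Both NT1_hp2 libraries were above both controls (1.27-fold, log2 difference 0.31, SE 0.086, limma adjusted p = 0.0731). MTPAP, the mitochondrial poly(A) polymerase (chr10:30309801-30374448, minus strand), measured 8.17 and 8.34 FPKM in NC and 10.6 and 9.76 FPKM in NT1_hp2. This was 1.23-fold without overlap (log2 difference 0.27, SE 0.071, adjusted p = 0.0652). The deadenylase PDE12, which removes such tails, differed by 0.035 (adjusted p = 0.769), with 4.84 and 4.72 FPKM in NC and 4.95 and 4.89 FPKM in NT1_hp2. The ratio of MTPAP to PDE12 was 1.69 and 1.77 in NC and 2.13 and 1.997 in NT1_hp2.

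PNPT1 (polynucleotide phosphorylase) and the helicase SUPV3L1 form the mitochondrial degradosome. PNPT1 (chr2:55634265-55693910, minus strand) measured 5.52 and 4.95 FPKM in NC and 6.85 and 5.73 FPKM in NT1_hp2. Its log2 difference was 0.22 (SE 0.11, limma adjusted p = 0.203). The closest libraries of the groups were nearly level, and the libraries within NT1_hp2 differed by more than those within NC. SUPV3L1 overlapped between groups (0.14, adjusted p = 0.401), and the ratio of PNPT1 to SUPV3L1 did too, at 0.606 and 0.664 in NC and 0.720 and 0.647 in NT1_hp2. With the length and GC trend removed the median of the 5 genes was 0.079, with REXO2 at 0.24, MTPAP at 0.16, PNPT1 at 0.040 and PDE12 below 0 at -0.14.

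Of the 3 enzymes that modify the wobble base of transfer RNAs, none passed, against 13.9% of all tested genes. GTPBP3, which with MTO1 builds the taurine modification, measured 16.2 and 15.0 FPKM in NC and 11.1 and 12.6 FPKM in NT1_hp2. The groups were apart and the log2 difference was -0.37 (SE 0.086, limma adjusted p = 0.0517). Its GC content was 64.1%, and with the length and GC trend removed the difference was -0.064. Its partner MTO1 measured 1.82 and 1.52 FPKM in NC and 1.64 and 1.66 FPKM in NT1_hp2, with overlapping groups (-0.0091, adjusted p = 0.970). TRMU, which adds sulfur to the same base, was at -0.12 (adjusted p = 0.294). With the trend removed MTO1 was at -0.19 (adjusted p = 0.451) and TRMU at 0.0050.

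**Figure D4:**
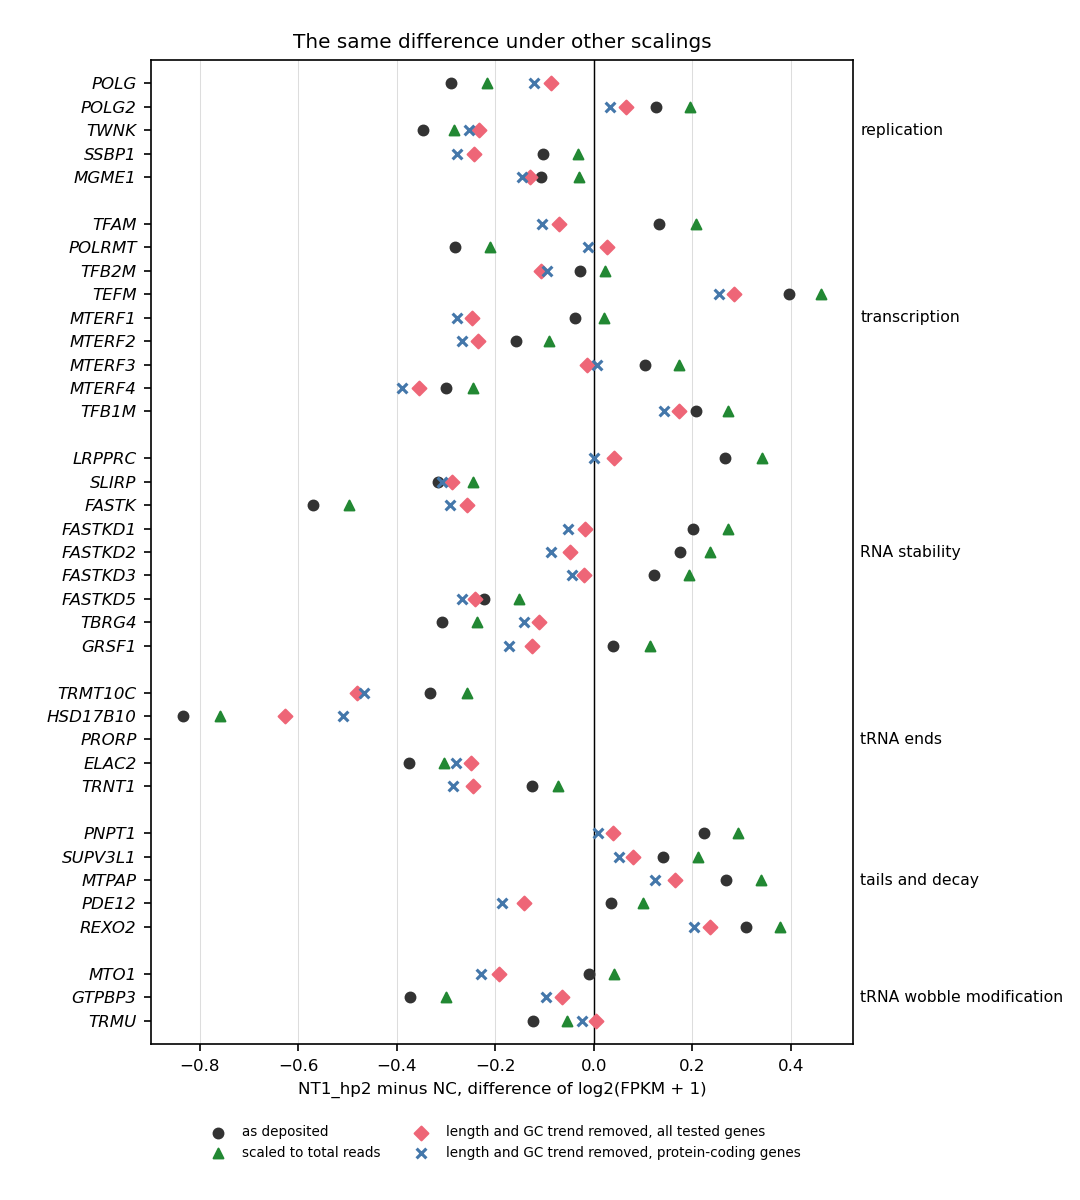
Difference of log2 values, NT1_hp2 minus NC, for the tested members as deposited (black), scaled to total reads (green) and with the length and GC trend removed over all tested genes (red) or over protein-coding genes (blue). TRMT10C, SLIRP and MTERF4 stay near or below their deposited values after trend removal, while POLRMT, TFAM, LRPPRC and GTPBP3 move to near 0.

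Other genes of the pathway were read from lists of their own, to be set beside the 5.00% of all tested genes that rose and the 8.92% that fell. Of 18 genes of mitochondrial DNA replication and nucleotide supply, SLC25A36, a pyrimidine nucleotide carrier, rose (0.37, limma adjusted p = 0.0376) and TOP1MT, the mitochondrial topoisomerase, fell (-0.65, adjusted p = 0.0483). Of 23 genes that modify mitochondrial transfer and ribosomal RNA none rose and only the pseudouridine synthase TRUB2 fell (-0.43, adjusted p = 0.0384). Of 15 genes of RNA granules and ribosomal RNA assembly none rose and DDX28 (-0.55, adjusted p = 0.0408) and RCC1L (-0.55, adjusted p = 0.0444) fell.

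Among 10 nuclear regulators of mitochondrial biogenesis 1 rose and 1 fell, against 5.00% and 8.92% of all tested genes. GABPA, the DNA-binding subunit of GABP, measured 10.4 and 10.7 FPKM in NC and 14.3 and 13.3 FPKM in NT1_hp2 (0.36, limma adjusted p = 0.0422). ESRRA, an orphan nuclear receptor that acts with PGC-1 coactivators, measured 16.9 and 14.5 FPKM in NC and 10.2 and 11.6 FPKM in NT1_hp2 (-0.49, adjusted p = 0.0469). Both sets of groups were apart. GABPA has 36.5% GC and ESRRA 64.5%. NRF1 was level, at 5.57 and 6.31 FPKM in NC and 5.92 and 5.89 FPKM in NT1_hp2.

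The mRNAs of the mitochondrial genome, on which the members act, were lower as a group. Of 13 genes, 12 fell and none rose, against 8.92% and 5.00% of all tested genes. They are cut from shared long precursors, and the positions of MT-ATP8 and MT-ATP6 overlap, as do those of MT-ND4L and MT-ND4. The 13 are therefore not independent draws. The median log2 difference of the 13 was -0.66 (range -1.92 to -0.39), and their GC content was 39.6% to 47.7%. The -1.92 belongs to MT-ATP8 and rests on 122 and 54 reads in NC and 19 and 22 in NT1_hp2. The -0.39 belongs to MT-ATP6, which overlaps it, so the range also depends on how reads were assigned. The next largest fall was -1.02, in MT-ND5. With the length and GC trend removed 10 of the 13 passed, all lower, and 9 passed without robust shrinkage. None passed with the GC trend alone removed, without a filter or on leaving out any 1 library, where 10 to 13 had an unadjusted limma p below 0.05, all lower, and their medians lay between -0.79 and -0.60. MT-ND6, the mRNA that FASTK is known to stabilise, measured 1551 and 1417 FPKM in NC and 782 and 739 FPKM in NT1_hp2. It is annotated on the minus strand, and the library kit does not mark strand, so its reads cannot be assigned to that strand. The log2 difference of -0.96 on the MT-ND6 row was close to that of MT-ND1, at -0.97. MT-ND5 was at -1.02, but it ends at base 14148 on the plus strand, next to MT-ND6 at 14149. Without strand, the rows of MT-ND5 and MT-ND6 need not be independent. A link to the level of FASTK was not tested. With 2 libraries in each group, whether levels of the members and of the mitochondrial mRNAs go together within a group was not tested.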

How the data were processed

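RNA levels were measured in 4 libraries of HEK293A cells prepared from 1 µg RNA with a NEBNext Ultra kit, which does not mark strand. The authors deposited 1 value per gene and library, read here as FPKM, a unit inferred since the deposited headers hold no more than gene and library names. The genome build GRCh38.p12 comes from the submitters' processing notes, and for the aligner, counter and scaling nothing is stated: these are not given in the sources used. Multiplied by summed GENCODE 29 exon length, 100% of nonzero values fell within 0.01 of a whole number of equal steps, each taken as 1 read. The library size implied by that step was 0.962 to 1.04 times the recovered total, lowest in NC replicate 1 and highest in NT1_hp2 replicate 3. No 2 files were identical (0 pairs), and both replicate pairs differed by more than sampling noise (chi-square per degree of freedom 6.22 and 2.84), so each library counted as 1 replicate.

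Genes at or above 1 FPKM in 2 or more libraries were compared as log2(FPKM + 1), which understates changes of low genes, with limma 3.58.1 (intensity trend, robust shrinkage, R 4.3.3). P-values were adjusted over all tested genes and called below 0.05, and differences are NT1_hp2 minus NC. The code was tested on simulated data. Alternatives were a pseudocount of 0.1, other filters and scalings, limma-voom on recovered reads scaled by medians of ratios, no robust shrinkage, protein-coding genes only, a per-library smooth trend with length and GC removed (mgcv 1.9.3) and omission of each library. Removing the GC trend alone, and removing both trends in protein-coding genes only, were added after seeing the data.

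The members and gene lists were chosen with earlier results of these data known. All 36 members are named by role. Full values are given for those that passed, for TFAM, POLRMT, LRPPRC and PNPT1, and for the 3 largest differences each way at a mean of at least 5 FPKM. From other lists at most 3 genes that passed are named. Further values, the ratios, the motifs, NRF1 and MT-ND6 were chosen after values were seen. Genes overlapping a member on either strand were listed, and the 8 pseudogenes named after 5 members were all below 1 FPKM.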

Additional observations from a re-analysis of the deposited data

How the results depend on the processing

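No paired analysis was possible because the groups share only replicate number 3. The number of members that passed was 4 in the main comparison. It was 11 with 1 FPKM required in all 4 libraries (background 26.2% of genes), 15 with limma-voom on recovered reads (35.3%), 14 among protein-coding genes only (38.8%), 2 without robust shrinkage (0 higher, 2 lower, 11.9%) and 8 with the length and GC trend removed among protein-coding genes (0 higher, 8 lower, 22.1%). It was 0 without a filter (0% of genes, 6778 genes and 16 members at an unadjusted p below 0.05), 0 with the length and GC trend removed (1.71%, 13 members unadjusted) and 0 with the GC trend alone removed (0.0183%, 12 members unadjusted). Leaving out 1 library gave 0 to 0 members, whichever library it was, and 0% to 0.00611% of genes, with 6 to 15 members and 3315 to 5836 genes at an unadjusted p below 0.05, since 3 libraries leave 1 residual degree of freedom and a lone library is assumed to vary like the other group. Pseudocount 0.1 (14.8%) and the median-of-ratios (16.2%), upper-quartile (17.8%) and total-read (17.6%) scalings gave 6 each, where the main comparison had 13.9%. The split was 2 higher and 4 lower with median-of-ratios scaling and 4 higher and 2 lower with upper-quartile and total-read scaling, and TBRG4 passed in none of these 3 scalings.

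Of 35 tested members, 23 kept 1 sign in all 16 alternatives and 12 did not. With the length and GC trend removed TFAM was at -0.071, GRSF1 at -0.13, POLRMT at 0.027, MTERF3 at -0.015, FASTKD1 at -0.017, FASTKD3 at -0.019, TRMU at 0.0050, PDE12 at -0.14 and FASTKD2 at -0.049. With the GC trend alone removed TFAM was at -0.10, GRSF1 at -0.12, POLRMT at 0.035, MTERF3 at -0.11, FASTKD1 at -0.069, FASTKD3 at -0.11, TRMU at 0.060, PDE12 at -0.11 and FASTKD2 at -0.074. Among protein-coding genes with both trends removed TFAM was at -0.11, GRSF1 at -0.17, FASTKD1 at -0.052, FASTKD3 at -0.045, PDE12 at -0.19 and FASTKD2 at -0.088. MTO1 was at 0.0051 with median-of-ratios, 0.036 with upper-quartile and 0.040 with total-read scaling and 0.0026 with voom. MTERF1 was at 0.015 and 0.020, and TFB2M at 0.019 and 0.023, with upper-quartile and total-read scaling. With 1 library left out MTERF1 ranged from -0.17 to 0.092, TFB2M from -0.17 to 0.11 and MTO1 from -0.089 to 0.071. The cause was not tested. The 42 reads behind the thinnest member value limit its precision.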
